A study of Macaca fascicularis with 2 samples.

Results

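The 7 genes described here, *MKI67*, *TOP2A*, *CDK1*, *CCNB1*, *UBE2C*, *CENPU* and *STMN1*, are genes of dividing cells. They were taken by name, and all 7 were found among the 21371 genes counted. They were followed in single cells of nucleus pulposus (NP), the gelatinous core of the intervertebral disc, and of articular cartilage (AC), from wild type male cynomolgus monkeys that were 3 years old. The cells had been released by enzyme digestion, tagged, sorted as live cells and pooled in 1 library (WTA8), and no source read here pairs the tags (A951 to A954) with the tissues or with the 2 monkeys. The labels list 3 tissue samples in this pool, for 4 tags.

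After the limits on cells, 5653 of 5723 cells of WTA8 were kept, namely 995 with tag A951, 1125 with A952, 1377 with A953 and 2156 with A954. Cells with 5 or more reads of both *KRT19*, a keratin, and *TBXT*, the notochordal transcription factor, were taken as notochordal cells, the remnants of the embryonic notochord in the NP. There were 310 of them, which was 5.48% of the cells, and 5343 other cells. Tag A951 held 67 notochordal cells, A952 236, A953 5 and A954 2. Other genes were set beside the rule. Among the notochordal markers, *APOE*, *SRGN*, *NRN1* and *C3orf49* were reported by the study, with *KRT19* and *TBXT*, for its NP-dominant cluster. That cluster drew on cells of this library, so the direction of these markers was partly set in advance. All 6 notochordal markers that the rule did not use were at least 2-fold higher in the notochordal cells, among them *CDH2* (log2 ratio 6.68) and *NRN1* (6.97), and 10 of 12 chondrocyte markers were at least 2-fold lower, among them *COL2A1* (log2 ratio -3.98). *ACAN* and *SOX9* were the 2 chondrocyte markers that were higher. Of all genes compared, 25.7% were 2-fold higher and 14.4% 2-fold lower. Depth was similar on both sides, with a median of 186370 reads and 4061 genes per notochordal cell and of 199072 reads and 3819 genes per other cell.

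A further library (WTA4) was set beside WTA8. The sample labels do not name it. The study joined its own cells with cells of NP and AC of cynomolgus monkeys from an earlier experiment. Cells with a single tag numbered 5674 in WTA8 and 1358 in WTA4. Their sum equals the total of joined cells that the study reports before filtering, so WTA4 is probably that earlier library. If so, it holds other tissue samples, in part from a monkey that is not in WTA8. No source read here names WTA4 or pairs its tags with samples, so its tags cannot be assumed to mark those of WTA8. Of its 1358 cells, 1347 were kept, 138 of them notochordal by the same rule (62 with tag A953, 76 with A954, none with A951 or A952). It was shallower, with a median of 121539 reads per cell against 198432 in WTA8, and its notochordal cells had a median of 81906 reads against 127073 in its other cells. The libraries shared 15 barcode numbers. Each library is 1 pool without a replicate, so no difference was tested. Its tags are not paired with tissues or monkeys, so the parts of tissue and monkey in a difference between notochordal and other cells cannot be told apart. Intervals are 95% intervals of counting error only, and reads here include PCR copies.

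As background, a cell that enters division first copies its DNA in S phase and then prepares for and passes through mitosis (G2 and M phases). The genes for each step are transcribed in waves, so a dividing cell holds RNA of many of them together, while a resting cell holds little of any. Chondrocytes of adult cartilage are known to divide rarely. *MKI67* encodes the Ki-67 protein that coats mitotic chromosomes, *TOP2A* the topoisomerase that untangles replicated DNA, *CDK1* the kinase that drives entry into mitosis and *CCNB1* its partner cyclin B1. *UBE2C* encodes the ubiquitin-conjugating enzyme of the anaphase-promoting complex, *CENPU* a protein of the inner kinetochore, and *STMN1* stathmin, which destabilises microtubules and is also made by some cells that do not divide.

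A single one of these genes was found in few cells of WTA8. With detection from 5 reads, *MKI67* was found in 32 of 5653 cells (0.566%, interval 0.388 to 0.798), *TOP2A* in 58 (1.03%), *CDK1* in 64 (1.13%), *CCNB1* and *UBE2C* in 42 each (0.743%), *CENPU* in 61 (1.08%) and *STMN1* in 254 (4.49%, interval 3.97 to 5.07). Thus *STMN1* was the most widely detected of the 7 and the intervals of the others overlapped in part. Most weaker signals were single reads. A read of *MKI67* was present in 335 cells, and 81.8% of them held 1 read only. The share of cells with 1 read only was lowest for *UBE2C* (40.2% of 92 cells). For comparison, *KRT19* and *TBXT* were used as genes that the other cells should lack. At 1 or more reads they were found in 10.6% and 10.4% of the other cells of WTA8, and at 5 or more reads in 0.992% and 0.599%. These last cells had 5 or more reads of only 1 of the 2 genes, since the rule removed cells with both. Among the other cells, the shares of all but *STMN1* lay between 0.561% for *MKI67* and 1.12% for *CDK1*. These 2 genes differ in abundance from the 7, so they give no exact background for them, and how many of the cells with 1 gene alone hold stray reads was not tested. Cells that held several of the genes were counted separately.

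The 2 sides of the notochordal rule were compared for each of the 7 genes. *MKI67* was found in 2 of 310 notochordal cells (0.645%, interval 0.0782 to 2.31) and 30 of 5343 other cells (0.561%, interval 0.379 to 0.801). *CDK1* was found in 1.29% against 1.12%, *CENPU* in 1.29% against 1.07%, and *CCNB1* and *UBE2C* each in 1.29% against 0.711%. The intervals of these 5 differences all included 0, and that of *CDK1* ran from -0.68 to 2.16 percentage points. The remaining 2 genes were found in more of the notochordal cells. *TOP2A* was found in 11 notochordal cells (3.55%, interval 1.78 to 6.26) and 47 other cells (0.880%, interval 0.647 to 1.17), a difference of 2.67 percentage points (interval 1.09 to 5.37). *STMN1* was found in 8.06% (interval 5.29 to 11.7) against 4.29% (interval 3.76 to 4.86), a difference of 3.78 percentage points (interval 1.17 to 7.38). From 1 read the intervals of both differences included 0 (*TOP2A* 7.42% against 5.00%, *STMN1* 15.8% against 14.4%).

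**Figure D1:**
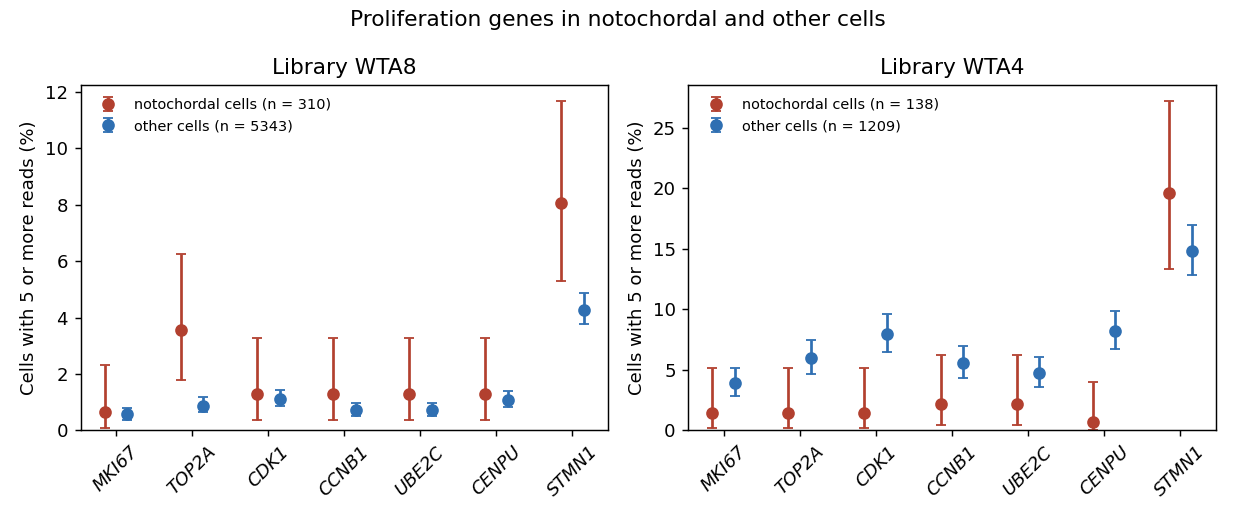
Percent of notochordal (red) and other (blue) cells with 5 or more reads of each of the 7 genes, in library WTA8 on the left and WTA4 on the right, whose vertical scales differ. Points are shares of cells and bars are exact binomial 95% intervals; in WTA8 *TOP2A* stands at 3.55% of notochordal and 0.880% of other cells, while in WTA4 every gene but *STMN1* is in a smaller share of the notochordal cells over all tags.

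By tag, A952 held 9 of the 11 notochordal cells with *TOP2A*, and also 236 of all 310 notochordal cells. There, 9 of 236 notochordal cells (3.81%) and 8 of 889 other cells (0.900%) held 5 or more reads of it. In A951 1 of 67 notochordal cells (1.49%) and 8 of 928 other cells (0.862%) did, in A953 1 of 5 and 7 of 1372, and in A954 0 of 2 and 24 of 2154. The interval of the difference was 0.92 to 6.22 percentage points in A952 and -0.85 to 7.13 in A951. *STMN1* was found in 6 of 67 notochordal cells of A951 (8.96%) and 18 of 236 of A952 (7.63%). In the other cells *STMN1* was found in 4.42% (A951), 4.16% (A952), 4.66% (A953) and 4.04% (A954), and *MKI67* in 0.862%, 0.787%, 0.364% and 0.464%, beside 1 of 67, 0 of 236, 1 of 5 and 0 of 2 notochordal cells. The intervals of the 4 tags overlapped for both genes in the other cells.

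Most notochordal cells with *TOP2A* held few of the rest of the 7 genes. Of the 11 notochordal cells, 10 had under 3 of the 7 genes, and 9 of these had *TOP2A* alone. Their *TOP2A* reads were 7, 18, 25, 26, 28, 37, 51, 81, 86 and 98, none had 5 or more *MKI67* reads, and 9 had no *MKI67* read at all. Of the 10, 4 also held 5 or more reads of a gene of the immune list, as did 3 of the 29 other cells described next. How many of all cells of each side did so is not given here, so no excess was read from these counts. Over all notochordal cells of WTA8, 3 of 4 immune markers tested, *CD14* (log2 ratio 1.25), *CD3E* (2.06) and *LYZ* (2.87), were 2-fold higher than in other cells. Of all genes compared, 25.7% were. The most abundant of the list, *CD68*, was at -0.85, and the list summed to 31.4 rpm against 37.0 rpm. Among the other cells 29 had *TOP2A* with under 3 of the 7 genes, with 5 to 277 *TOP2A* reads, and all 29 had no *MKI67* read. *TOP2A* is a gene that dividing cells share with *MKI67*. The 10 and 29 cells were chosen for holding under 3 of the genes, so their lack of *MKI67* is partly set by the choice. Over all cells of each side, *MKI67* was found in 0.645% of notochordal and 0.561% of other cells. The part of reads from other cells was not tested.

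Many reads of the 7 genes lay in very few cells of WTA8. Only 21 of 5653 cells (0.371%, interval 0.230 to 0.567) held 5 or more reads of at least 3 of the 7 genes. These are called cells with several of the genes, which is a range of a count and not a cell type. They held 84.6% of all *MKI67* reads, 78.7% of *TOP2A*, 74.0% of *UBE2C*, 62.5% of *CDK1* and 62.1% of *STMN1*, but only 48.4% of *CCNB1* and 39.8% of *CENPU* reads. No other gene was used to choose them, so these shares of reads are partly set by the choice. Most cells lay clear of the limit. None of the 7 genes was found in 5222 cells, 1 in 385, 2 in 25, 3 in 2, 4 in 1, 5 in 5, 6 in 8 and 7 in 5. Thus 18 of the 21 cells held 5 or more of the genes and only 2 lay at the limit itself. Of the 25 cells just below it, 22 held *STMN1*, and of the 385 cells with a single gene 211 held *STMN1* and 13 *MKI67*.

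**Figure D2:**
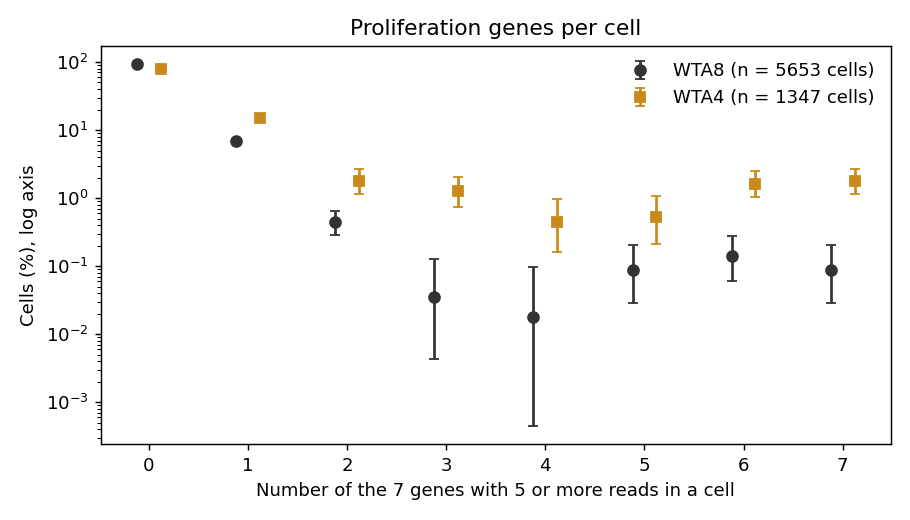
Percent of cells, on a log axis, by the number of the 7 genes with 5 or more reads, in WTA8 (circles, 5653 cells) and WTA4 (squares, 1347 cells). Bars are exact binomial 95% intervals; in both libraries the share falls up to 4 genes and is higher again at 6 genes (8 cells of WTA8 and 22 of WTA4).

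Of the 21 cells with several of the genes 19 were outside the notochordal rule, as were 5343 of all 5653 cells. Notochordal cells gave 2 of 310 (0.645%, interval 0.0782 to 2.31) and other cells 19 of 5343 (0.356%, interval 0.214 to 0.555), a difference of 0.29 percentage points with an interval of -0.22 to 1.97. The interval includes 0, so no difference was read from these counts. Of the 19 other cells, 5 came from each of A951 (of 928 cells), A952 (of 889) and A953 (of 1372), and 4 from A954 (of 2154). Notochordal cells gave 0 of 67 in A951, 1 of 236 in A952 (0.424% against 0.562% of other cells), 1 of 5 in A953 and 0 of 2 in A954. Neither *KRT19* nor *TBXT* gave a read in 14 of the 19, and none had more than 1 read of either. All 19 held *COL2A1*, the main collagen of cartilage, with 315 to 23824 reads (median 8743), and *ACAN*, its main proteoglycan, with 10 to 6680 reads (median 2405). Nearly every cell of WTA8 did, so this does not set the 19 apart. *COL2A1* was found in 100% of the cells, and *ACAN* in 95.2% of those with under 0.5% mitochondrial reads and 98.4% of the rest. No cell had 5 or more reads of *PTPRC*, which marks blood-derived cells, or of *PECAM1*, which marks endothelium. Cells that missed the notochordal rule narrowly, with 5 or more reads of only 1 of the 2 genes, numbered 85, and 0 of them had several of the 7 genes.

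The *MKI67* reads of the 5 such cells of A951 were 706, 224, 274, 204 and 720, and those of the 5 of A952 were 36, 113, 187, 1041 and 144. In A953 they were 0, 3, 493, 310 and 328, and in A954 492, 314, 285 and 76. So 17 of the 19 were clearly positive for *MKI67*, at every tag. The 14 cells with 5 or more *MKI67* reads but under 3 of the genes had 26 to 145 reads, with a median of 50 against 297.5 in the 18 positive cells among the 21, and the ranges overlapped. *CCNB1* was the gene most often absent, with 5 or more reads in 10 of the 21 cells, against 21 for *STMN1*, 20 for *CDK1*, 19 for *TOP2A*, 18 for *MKI67* and 15 each for *UBE2C* and *CENPU*.

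**Figure D3:**
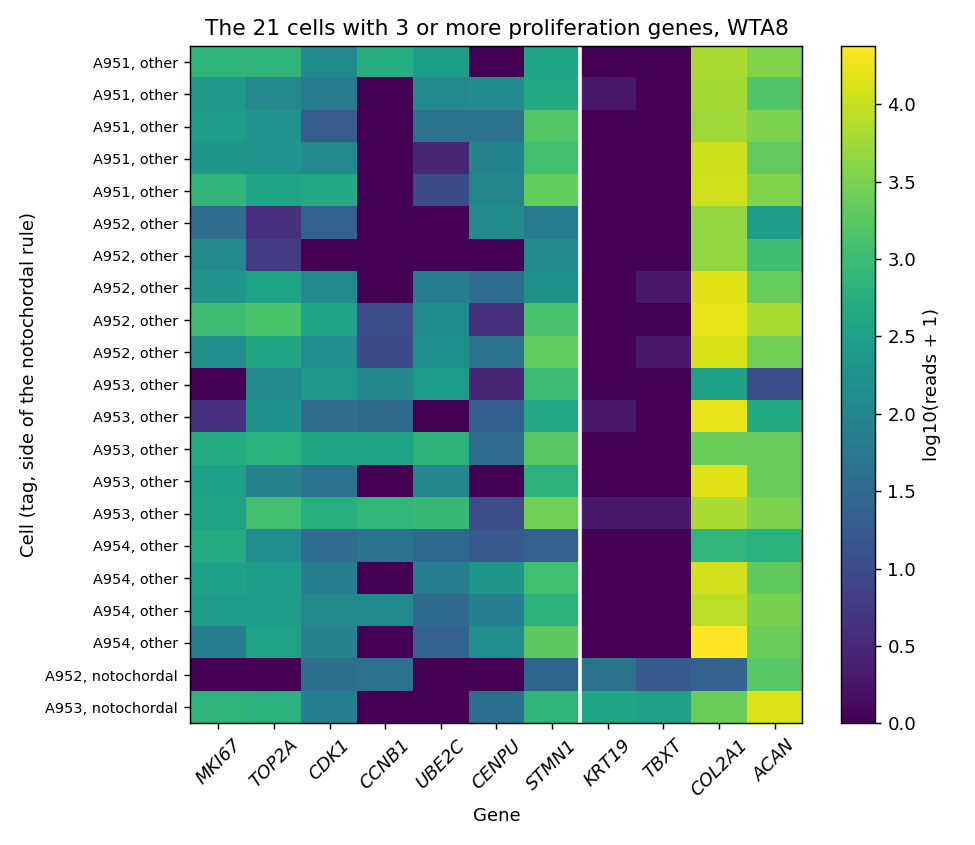
Reads of the 7 genes, and right of the white line of *KRT19*, *TBXT*, *COL2A1* and *ACAN*, in each of the 21 cells of WTA8 with 3 or more of the 7 genes, as log10(reads + 1). Each row is 1 cell with its tag; the 19 upper cells have at most 1 read of *KRT19* or *TBXT*, and the 2 lowest are notochordal.

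The 2 notochordal cells differed from each other. That of A952 had 92111 reads in all, with 40 reads of *CDK1*, 43 of *CCNB1* and 25 of *STMN1* and none of the other 4 genes. It had 47 reads of *KRT19* and 16 of *TBXT*. That of A953 had 867991 reads in all, with 694 of *MKI67*, 615 of *TOP2A*, 77 of *CDK1*, 39 of *CENPU* and 736 of *STMN1*. It had 387 reads of *KRT19* and 319 of *TBXT*, and also 2447 of *COL2A1* and 13824 of *ACAN*. Cells with several of the genes were deep in general, with a median of 465967 reads and 6182 genes against 198253 reads and 3824.5 genes in the rest of WTA8. Barcodes marked as doublets by 2 tags had been left out, and none of the 42 held several of the genes. Pairs of cells with the same tag cannot be seen from the tags, and their part in these cells was not tested. With every cell thinned to 50000 reads, 20 of 5446 cells (0.367%) still held several of the genes, 2 of them notochordal, and 207 cells were too shallow to be thinned.

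Summed over cells, the order of the 2 sides in the level of the 7 genes depended on which tags and cells were included. It was 78.2 reads per 1000000 reads (rpm) in notochordal cells and 48.2 rpm in other cells, a log2 ratio of 0.70. Within the 2 tags that hold most notochordal cells the direction was the opposite, with 59.2 rpm against 77.5 rpm in A951 (log2 ratio -0.39) and 43.4 rpm against 61.7 rpm in A952 (-0.51), while A953 had 978.0 rpm over its 5 notochordal cells against 57.1 rpm (4.10) and the 2 notochordal cells of A954 gave no read. Without tag A953, and so without the cell with 694 *MKI67* reads, the log2 ratio was 0.036. Without A952 it was 2.12. Without A954 it was 0.30. With all 21 cells left out, the level was 44.5 rpm against 15.6 rpm, a log2 ratio of 1.51. Those cells were chosen by reads of the same 7 genes. Ratios without them are thus partly set by the choice, and no order was read from them. At single-gene level, 2 of the 7, *MKI67* (log2 ratio 1.09) and *TOP2A* (1.31), were at least 2-fold higher and none was 2-fold lower. The cell of A953 held 694 of the 780 *MKI67* reads and 615 of the 1087 *TOP2A* reads of notochordal cells. Within A951 *MKI67* was at 5.74 rpm in notochordal and 11.9 rpm in other cells, and within A952 at 0.312 and 9.07 rpm. *TOP2A* was at 4.59 and 9.84 rpm in A951 and at 8.10 and 12.9 rpm in A952. In A952 the share of cells with *TOP2A* was thus higher in notochordal cells and its summed level lower, so no order was read from that share. With the 21 cells left out, *MKI67* had a log2 ratio of 0.57, and *UBE2C* (3.46), *TOP2A* (2.55), *CCNB1* (1.59), *STMN1* (1.33) and *CENPU* (1.12) were at least 2-fold higher. Of the 361 *UBE2C* reads of notochordal cells, 288 were in A951, where 2 of 67 such cells held 5 or more. With all cells kept, *UBE2C* was at 23.6 rpm in notochordal and 2.61 rpm in other cells of A951, and at 0.331 and 2.56 rpm in A952. Of all 11615 genes compared, 40.1% differed 2-fold either way, with 25.7% higher and 14.4% lower, and the median log2 ratio was 0.29 over all genes and 0.73 over the 7. In bulk sums like these, fewer positive cells and less RNA per cell cannot be told apart.

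Each of the 7 genes was found with the others in a larger share of its own cells than of the cells without it. Of the 32 cells with *MKI67* in WTA8, 18 (56.3%) held 2 or more of the other 6 genes, against 27 of 5621 cells without *MKI67* (0.480%). *TOP2A* and *CDK1* were each found in 17 of the 32 (53.1%), *UBE2C* and *CENPU* each in 14 (43.8%), *STMN1* in 19 (59.4%) and *CCNB1* in 7 (21.9%). In cells without *MKI67* the share with *TOP2A* was 0.729%. With detection from 1 read, *TOP2A* was found in 11.9% of *MKI67* cells, and in 21.9% with cells also thinned to 50000 reads. *STMN1* cells held 2 or more of the others least often, in 21 of 254 (8.27%), but only 3 of 5399 cells without *STMN1* did (0.0556%). For the remaining genes the share of cells with 2 or more others was 32.8% for *TOP2A*, 31.3% for *CDK1*, 35.7% for *UBE2C*, 24.6% for *CENPU* and 23.8% for *CCNB1*. Among notochordal cells, 2 or more others were found in 1 of the 2 *MKI67* cells, 1 of 11 *TOP2A* cells (9.09%), 2 of 4 *CDK1* cells, 1 of 4 *CCNB1* cells, 0 of 4 *UBE2C* cells, 1 of 4 *CENPU* cells and 2 of 25 *STMN1* cells (8%). Among other cells they were found in 17 of 30 *MKI67* cells, 18 of 47 *TOP2A* cells (38.3%) and 19 of 229 *STMN1* cells (8.30%). By the overlap with the 21 cells as a share of all cells of either kind (Jaccard index, to which each gene itself contributes), *MKI67* came first with 0.51 and *STMN1* last with 0.083. The order differed in WTA4, where *MKI67* (0.60) lay behind *UBE2C* (0.68), *TOP2A* (0.65), *CENPU* (0.63) and *CDK1* (0.61), while *STMN1* was again last (0.34).

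**Figure D4:**
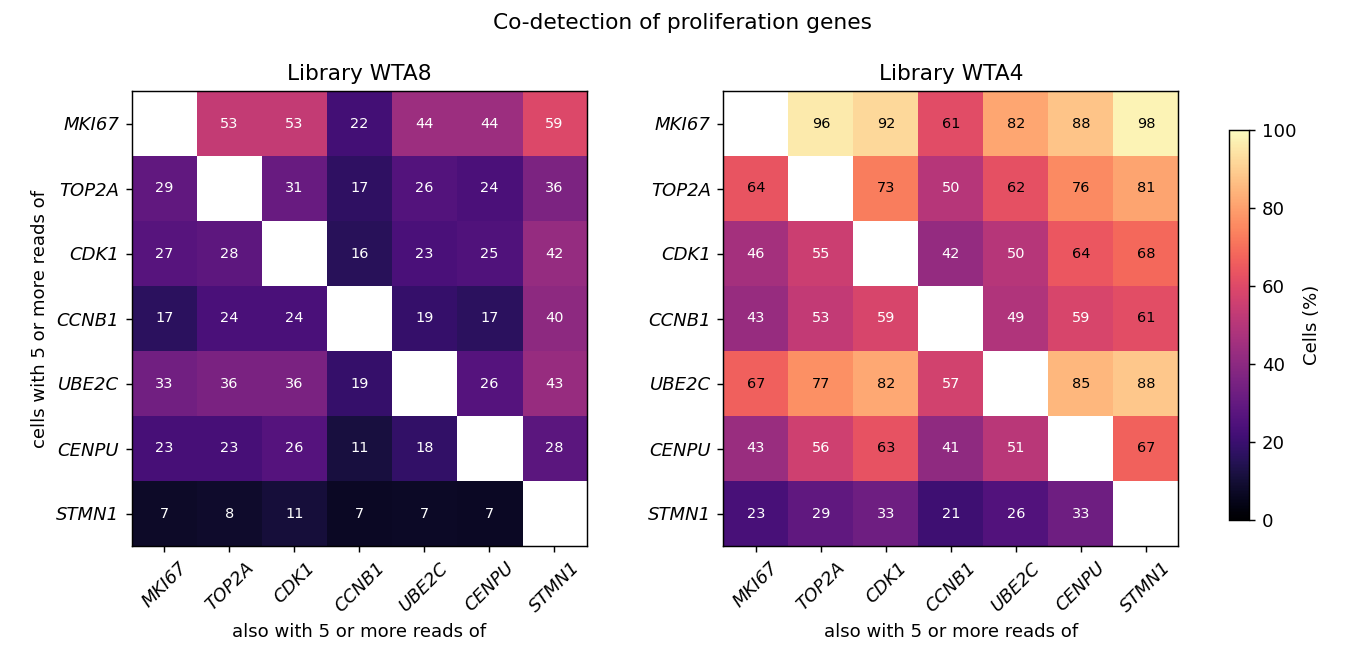
Percent of the cells with 5 or more reads of the gene at the left that also hold 5 or more reads of the gene below, in WTA8 and WTA4. Of the *MKI67* cells, 53.1% in WTA8 and 95.9% in WTA4 also held *TOP2A*, and the *STMN1* row is the lowest in both libraries.

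In WTA4 the same genes were more frequent and more tightly joined. Several of the genes were found in 76 of 1347 cells (5.64%), and all 76 were outside the notochordal rule (6.29% of 1209, interval 4.98 to 7.81). Among the 138 notochordal cells the count was 0, which allows a share of up to 2.17% by the limit of 3 counts and 2.64% by the exact interval, and the difference was -6.29 percentage points (interval -7.80 to -3.31). Within the tags that hold notochordal cells it was -12.2 points in A953 (0 of 62 against 20 of 164) and -12.1 points in A954 (0 of 76 against 17 of 141). Among cells with 0.5% or more mitochondrial reads, a limit chosen after the data were seen, which held 133 of the 138 notochordal cells, the difference over all tags was -1.59 percentage points (0 of 133 against 11 of 691), with an interval of -2.83 to 1.30 that included 0. Of these 11 cells, 9 were in A951, which holds no notochordal cells. The other cells gave 0 of 190 in A952, 2 of 25 in A953 and 0 of 29 in A954. *MKI67* was found in 1.45% of notochordal and 3.89% of other cells, *TOP2A* in 1.45% and 5.96%, *CDK1* in 1.45% and 7.94%, *CENPU* in 0.725% and 8.19%, *CCNB1* in 2.17% and 5.54%, and *UBE2C* in 2.17% and 4.71%. *STMN1* alone was found in more of the notochordal cells, 19.6% against 14.8%, with an interval of the difference of -1.37 to 12.4 percentage points, but within the tags that hold notochordal cells it was found in fewer of them (22.6% against 25% in A953 and 17.1% against 23.4% in A954). *KRT19* and *TBXT*, measured in the other cells as above, gave 0.744% and 1.41%, below each of these shares of the other cells. The rule had removed cells with 5 or more reads of both, which keeps these values low, so they give no exact background. All 7 genes were at least 2-fold lower in the notochordal cells of WTA4 by summed reads, where 40.3% of 10916 genes differed 2-fold either way and 18.2% were 2-fold lower. Without the 76 cells the summed level was 50.1 rpm in notochordal and 31.6 rpm in other cells, a log2 ratio of 0.67, against -2.35 with them. All 76 were other cells chosen by reads of these genes, so leaving them out had to raise the ratio, and no order was read from it.

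Co-detection was also closer in WTA4. Of 49 cells with *MKI67*, 47 held *TOP2A* (95.9%), 48 held *STMN1* and 47 held 2 or more of the other genes. No cell of WTA4 had *MKI67* as its only gene of the 7, whereas 13 of the 32 *MKI67* cells of WTA8 did. The 76 cells held 95.2% of the *MKI67* reads of WTA4 and 84.6% of its *STMN1* reads, shares partly set by how they were chosen. *CCNB1* was again the gene found in fewest of them (43 of 76), and *STMN1* the gene found in most (72). Thinned to 50000 reads, 51 of 1050 cells of WTA4 (4.86%) kept several of the genes, beside 0.367% in WTA8, and 297 cells of WTA4 were too shallow to be thinned.

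The cells with several of the genes in WTA4 differed from those of WTA8 in their mitochondrial reads. Their median mitochondrial share was 0.213%, against 1.58% in the rest of WTA4, while in WTA8 it was 1.73% against 1.45%. The limit of 0.5% divided WTA4 unequally. Below it 65 of 523 cells (12.4%) held several of the genes, and from it upward 11 of 824 (1.33%). In WTA8 only 83 cells lay below 0.5% and 0 of them held several of the genes. Between the other cells with 0.5% or more, WTA4 gave 1.59% (interval 0.797 to 2.83) and WTA8 0.359% (interval 0.217 to 0.561). In WTA4 the cells below 0.5% also had more reads (median 187836 against 88930), and just 5 of them were notochordal. They also differed in cartilage genes, listed here after the values were seen. *PRG4*, lubricin of the cartilage surface, was at 413.9 rpm below 0.5% and 21957 rpm from it upward, *CRTAC1* at 10.6 and 1077 rpm, and *CILP* at 3.12 and 299.1 rpm, while *COL11A1* was at 19964 and 3426 rpm and *COL9A1* at 18300 and 3850 rpm. The part of mitochondrial share, depth, these cartilage genes and library in the difference between the 2 libraries was not tested. By tag, the other cells of WTA4 gave 20 of 562 (3.56%) in A951, 19 of 342 (5.56%) in A952, 20 of 164 (12.2%) in A953 and 17 of 141 (12.1%) in A954. Below 0.5% the 4 tags lay between 9.57% and 15.2%, with overlapping intervals.

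**Figure D5:**
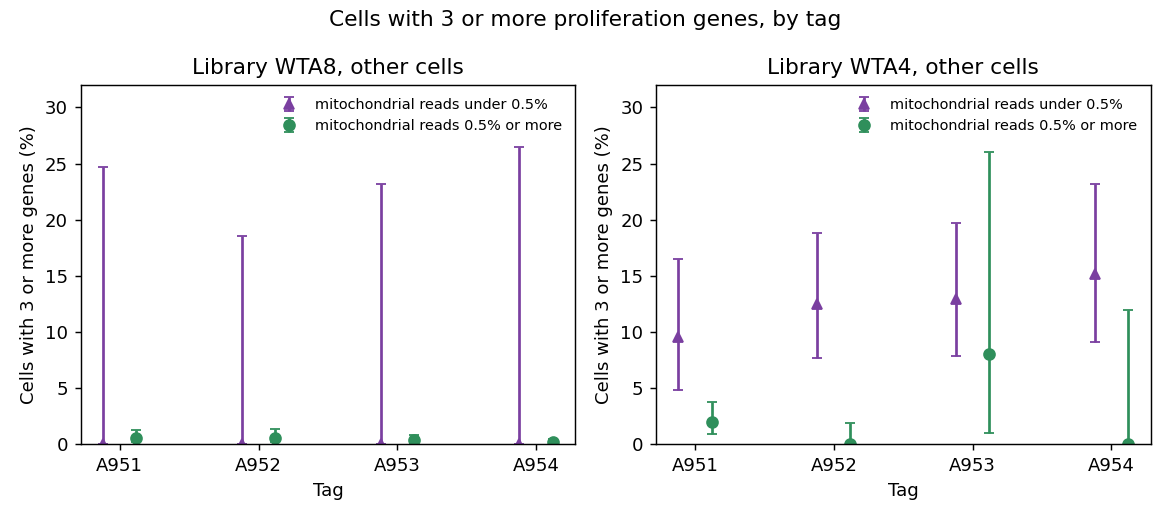
Percent of cells outside the notochordal rule with 3 or more of the 7 genes, by tag, for cells with under 0.5% (triangles) and 0.5% or more (circles) mitochondrial reads, in WTA8 and WTA4. Bars are exact binomial 95% intervals; the triangles of WTA4 lie between 9.57% and 15.2%, and all 4 of WTA8 are at 0 with wide intervals, as they rest on 12 to 18 cells each.

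Other genes of the cell cycle, from lists of S phase and of G2/M phase genes that leave out the 7 genes, were higher in the same cells. In WTA8, 29 of 34 S phase genes tested were at least 2-fold higher in the 21 cells than in the rest and 1 was lower (median log2 ratio 2.99), and 42 of 45 G2/M genes were higher and none lower (median 5.11). Over all genes 13.4% were 2-fold higher, and the median was -0.21. A gene was tested if at least 10 cells of the library held it, the 21 cells included, so some passed mainly through those cells. *EXO1* was held by 13 cells, 10 of them among the 21, and *DLGAP5* by 18, 12 of them among the 21. The counts of higher genes are therefore partly set by the filter, which was also used for the lists below. A cell with several of the 7 genes held a median of 18 of 37 S phase and 27 of 46 G2/M genes at 5 or more reads, against 5 and 5 in cells with 1 of the 7 genes and 3 and 4 in cells with none. In WTA4, 35 of 37 S phase and 39 of 44 G2/M genes were higher, where 8.2% of all genes were, and a cell with several of the 7 genes held a median of 24 and 24. Cells of WTA4 with 1 of the 7 genes held a median of 7 and 7, and cells with none 4 and 4. These cells were also deeper, which raises the number of genes at 5 reads.

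The S phase genes found in most of the 21 cells were *USP1*, a deubiquitinase (19 cells, log2 ratio 1.65), *RRM1*, a subunit of ribonucleotide reductase (18 cells, 2.21), *TYMS*, which makes thymidylate (18 cells, 5.20), and *PCNA*, the sliding clamp of DNA polymerase (17 cells, 3.01), level with *POLR1B* of RNA polymerase I (17 cells, 1.20). *TYMS* stood out, with 314.2 rpm against 8.55 rpm. Of the G2/M genes, *HMGB2*, a chromatin protein, and *TUBB4B*, a beta-tubulin, were in all 21 cells (log2 ratios 3.02 and 2.09), *SMC4* of condensin was in 20 (2.52), and *CBX5*, heterochromatin protein 1, and *CKAP2*, a spindle protein, were in 19 each (0.99 and 7.22). *CKAP2* had 324.2 rpm in the 21 cells and 2.17 rpm in the rest.

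The regulators of the G1 phase did not move as 1 group. Of 7 G1 cyclins and kinases, *CDK2* (log2 ratio 1.18) and *CDK4* (1.07) were at least 2-fold higher in the 21 cells and *CDK6* (-1.67) was lower. *CCND3* gave no read there, which puts it at least 2-fold lower when 3 reads are taken as the floor. *CCND1* (0.83), *CCND2* (-0.79) and *CCNE1* (0.00) lay within 2-fold. In WTA4 *CCNE1* was at 3.06, *CCND3* at 1.84, *CDK4* at 1.58 and *CCND1* at 1.14, and none of the 7 was 2-fold lower. Of 8 inhibitors and pocket proteins, which hold the cycle back, 4 were higher in WTA8 and 2 lower, beside 13.4% and 26.6% of all genes. *CDKN2C*, the p18 inhibitor of CDK4 and CDK6, had 394.9 rpm in the 21 cells and 11.8 rpm in the rest (log2 ratio 5.06, 15 cells), and *CDKN2D*, the p19 inhibitor, was at 2.71 (10 cells). *RB1*, the retinoblastoma protein, was at 1.14 (12 cells) and *CDKN1A*, the p21 inhibitor, at 0.31 (11 cells). *RBL1* (1.52), *CDKN1B* (-1.54) and *RBL2* (-1.08), named after their values were seen, were the others past 2-fold. In WTA4 *CDKN2C* (2.66), *CDKN2D* (2.34) and *RBL1* (1.42) were again 2-fold higher and *CDKN1B* (-1.12) again 2-fold lower, beside 8.2% and 12.9% of all genes, while *RB1* (0.79) and *RBL2* (-0.46) lay within 2-fold.

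Close relatives of the 7 genes showed whether reads of related genes moved with them. *TOP2B*, the related topoisomerase that dividing and resting cells both make, was at a log2 ratio of -0.47 in the 21 cells of WTA8 and -0.61 in WTA4. *TOP2A* was at 8.84 in WTA8, but it helped to choose the 21 cells, so its ratio is partly set by the choice. *UBE2S*, the partner of *UBE2C* at the anaphase-promoting complex, was at 1.89 and 1.51. *STMN3* gave only 3 reads in the 21 cells of WTA8 and was at 0.60 in WTA4. *CDK2*, also listed here as a relative of *CDK1*, is given above, and *STMN2* and *CCNB3* were found in too few cells to compare.

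Markers of cell types were compared in the same way. None of 12 chondrocyte markers was 2-fold higher in the 21 cells of WTA8 and 2 were lower, *DCN* (-1.30) and *CILP* (-1.28), both named after their values were seen, beside 26.6% of all genes. *COL2A1* (-0.17), *ACAN* (0.32), *COL9A1* (0.12) and *COL11A1* (-0.04), all in 21 of 21 cells, lay within 2-fold. In WTA4, 7 of the 12 were 2-fold lower in the 76 cells (median log2 ratio -1.03), beside 12.9% of all genes, with *PRG4* at -1.95 and *CRTAC1* at -3.17, both named after their values were seen, while *COL2A1* (-0.06), *ACAN* (-0.31), *COL9A1* (0.25) and *COL11A1* (0.33) lay within 2-fold. Of the 8 notochordal markers in WTA8 only *NRN1* was 2-fold different (-4.86), and the median log2 ratio was -0.53, with a summed level of 789.1 rpm against 1033 rpm. In WTA4, where none of the 76 cells was notochordal, 5 of the 8 were 2-fold lower (median -7.11). In WTA8, of 4 immune markers tested 3 were lower and none higher, on 1 to 3 reads each in the 21 cells, and *CD68*, the most abundant of the list, was at a log2 ratio of 0.21 (5 cells), while 3 of the 11 counted gave no read in the 21 cells. The summed level of the immune list was 21.5 rpm against 36.9 rpm, that of the endothelial list 2.24 rpm against 3.08 rpm, that of the mural list 45.2 rpm against 38.2 rpm, that of the Schwann and neuron list 315.0 rpm against 582.5 rpm, mostly *S100B*, and that of the bone list 57.0 rpm against 192.8 rpm, mostly *CTSK*. Erythroid genes were near 0 on both sides (0.187 and 0.0932 rpm).

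The genes whose cells overlapped most with the 21 cells were chosen in WTA8 among 11608 genes and then read in WTA4. They were *SPC25* (Jaccard index 0.76), a kinetochore protein of the NDC80 complex, *ESCO2* (0.65), the acetyltransferase that locks cohesin on replicated DNA, *ANLN* (0.58), anillin of the cleavage furrow, *CDCA5* (0.52), sororin, which guards cohesin, *CEP55* (0.50), of the midbody, and *ZWINT* (0.50), of the kinetochore. They were followed by *DLGAP5* (0.44), a spindle protein, *AURKB* (0.43), the kinase of the chromosomal passenger complex, *NUF2* (0.42), also of the NDC80 complex, and *EXO1* (0.42), an exonuclease of DNA repair. *SPC25* was found in 19 of the 21 cells and in just 4 others. In WTA4, which did not choose them, their indices with the 76 cells were 0.64 for *ANLN*, the highest of 10909 genes, 0.55 for *CEP55* and *ZWINT*, 0.50 for *SPC25*, *ESCO2* and *CDCA5*, 0.49 for *NUF2*, 0.45 for *AURKB*, 0.37 for *EXO1* and 0.33 for *DLGAP5*. The lowest of them stood at rank 91. Of the 10 genes, 5 were in the S phase or G2/M lists.

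Cyclin B1 RNA builds up late in the cycle, and the cells with and without *CCNB1* were therefore set side by side after the values were seen. In WTA8 the 10 cells with 5 or more *CCNB1* reads held a median of 15.5 S phase genes and 29 G2/M genes, and the 11 without held 19 and 25. The ranges overlapped widely, with 4 to 44 G2/M genes in the former and 11 to 30 in the latter. In WTA4 the 43 cells with *CCNB1* held a median of 27 S phase and 32 G2/M genes and the 33 without held 19 and 18. There the cells with *CCNB1* were also deeper (median 328997 against 234029 reads), while in WTA8 the medians were 492978 and 435072 reads.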

How the data were processed

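Single-cell RNA was read by TAS-seq. The authors used HISAT2 2.2.1 for alignment to the cynomolgus monkey genome and counted reads per gene with featureCounts 2.0.2, per the labels' processing notes and the study's methods, allowing reads that map to several places, so reads of near-identical copies can be shared between genes. The genome build is not given in the sources used here. The deposited values are counts of reads per gene and cell, without molecular identifiers and not normalized. Columns of both libraries were mapped by their names, and the tag library holds no expression and was not used.

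Cells with 1 tag, 200 to 9000 genes and under 5% mitochondrial reads (13 genes) were kept. The 7 genes, the lists (the 7 members, S phase, G2/M phase, G1 cyclins and kinases, inhibitors and pocket proteins, paralogs, and notochordal, chondrocyte, immune, endothelial, mural, erythroid, Schwann and neuron, and bone markers) and the limits were chosen with earlier results of these data known. Named were the 7 genes, up to 4 genes of each list found in most cells with several of the 7, and all genes of shorter lists. Also named were the 10 genes outside the 7 with the highest Jaccard index. Shares have exact binomial (Clopper-Pearson) 95% intervals and differences Newcombe intervals. Levels are pooled rpm, and under 3 reads were set to 3 reads in ratios. Genes were compared if found at 5 or more reads in at least 10 cells, with 2-fold as the limit. No p-value is given, since cells are not replicates, and no doublet caller was run. Python 3.11.15, numpy 2.4.6, scipy 1.17.1 and pandas 2.3.3 were used. The scripts' calculations were tested on simulated data. The alternatives were other read limits, thinning, other numbers of genes, other cell limits and each tag left out.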

Additional observations from a re-analysis of the deposited data

Results flagged for a closer look

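For *TOP2A*, *CDK1*, *CENPU* and the share of cells with several of the 7 genes, the difference between notochordal and other cells was above 0 in WTA8 and below 0 in WTA4. *MKI67*, *CCNB1* and *UBE2C* had the same signs, but are not listed because their counting intervals in the 2 libraries overlapped. Whether the libraries differ was not tested, since each is 1 pool without a replicate and the intervals cover counting error only. For *TOP2A* it was 2.67 percentage points in WTA8 and -4.51 in WTA4. For *CDK1* it was 0.17 and -6.49, for *CENPU* 0.22 and -7.46, and for cells with 3 or more of the 7 genes 0.29 and -6.29. The sign in WTA8 is not firm for any of these. For *TOP2A* the interval from 1 read was -0.08 to 5.93 points. From 5 reads it was -0.85 to 7.13 within A951 and 0.92 to 6.22 within A952. The summed level of *TOP2A* was higher in notochordal cells over all tags (log2 ratio 1.31). It was lower in them within A951 (4.59 against 9.84 rpm) and A952 (8.10 against 12.9 rpm). The difference of *CDK1* was -0.20 points from 1 read, and its summed level had a log2 ratio of -0.43. The intervals of *CDK1* and *CENPU* included 0, and the 0.29 points fell below 0 under 3 alternatives given below. In each case the share in the notochordal cells of WTA4 rested on at most 2 of 138 cells, and the other cells of WTA4 included the cells of low mitochondrial share described above.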

How the results depend on the processing

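Of 104 recalculated values, 79 stayed within the counting interval of the value, or for counts of genes within 1.5 times, 23 moved further and 2 reversed. Each library is 1 pool without a replicate, so these are values without a test. Detection from 1 read raised the share of other cells with 3 or more genes to 1.12% in WTA8 and 15.96% in WTA4 (8.29% in WTA4 after thinning), took the WTA4 difference to -10.9 points, and lowered the share of *MKI67* cells with *TOP2A* to 11.9% (21.9% after thinning). A limit of 2 genes gave 0.767% and 8.02%, and a limit of 4 gave 4.88% in WTA4. In WTA4 with 0.5% or more mitochondrial reads alone, chosen after the data were seen, the share was 1.59% and the difference -1.59 points. Leaving out each tag, also chosen later for WTA4, gave 5.36% to 8.66% and -8.66 to -5.36 points there, the extreme without A951. The log2 ratio of the summed level ranged from 0.036 (without A953) to 2.12 (without A952) over the tags left out. Within single tags, chosen after the data were seen, it was -0.39 (A951), -0.51 (A952) and 4.10 (A953). It was 1.34 with notochordal cells from 1 read, 0.76 from 20 reads and 0.91 without *STMN1*. Without the cells with several genes, which the same genes chose, it was 1.51. Genes past 2-fold between notochordal and other cells numbered 4654, and 3020 with notochordal cells from 1 read. The WTA8 difference of 0.29 points, whose interval includes 0, changed sign with notochordal cells from 20 reads (-0.0012), with a limit of 4 genes (-0.014) and without A953 (-0.025), and was at most 1.04 points (without A952). No paired analysis was run. In WTA8, A953 and A954 hold only 5 and 2 notochordal cells, which leaves 2 tags, and the labels give no replicate numbers. Values within tags are therefore given without a test.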

Other observations

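Among the cells left out, the 42 barcodes of WTA8 with 2 tags had none of the 7 genes in 40 cases and 1 in 2, and the 7 untagged cells had none in 6 and 1 in 1. Of the 21 tagged cells of WTA8 outside the limits, none held several of the 7 genes. Of the 11 such cells of WTA4, 3 did.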
